A study of Mus musculus with 6 samples.

Results

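The genes described here are 10 genes of the bone morphogenetic protein (BMP) pathway, namely the ligand Bmp4, the receptor Bmpr1a, the target genes Id1, Id2, Id3, Id4 and Atoh8, and the inhibitors Smad6, Smad7 and Bambi. They are 10 of the 54453 Ensembl genes in the deposited tables, and 9 of them were among the 14169 genes that passed a filter on low counts. Id4 did not pass. The members were chosen by pathway and on values of the comparison of the Scrib hairpin with the Renilla hairpin, so their values in that comparison are given as a description, with no test. The choice was not made on differences between the organoid lines, and these were tested. Members and tests were still chosen with earlier results of these data known, so the tests between lines are not independent of the data.

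The study sequenced mRNA from 3 mouse pancreatic tumour organoid lines, T91, T113 and T118. Each line was sequenced with a short hairpin RNA (shRNA) against the polarity gene Scrib and, separately, with a control hairpin against Renilla, a luciferase gene that mouse cells lack. All 6 libraries share the genotype label KPF/FC, whose letters the labels leave unexplained, and the series calls the lines KPC, the usual name of a mouse model of pancreatic ductal adenocarcinoma. T91 came from a female at passage 10, T118 from a male at passage 11 and T113 from a male at passage 13, and all were grown in Matrigel, a gel of extracellular matrix proteins. The question of the design is what loss of Scrib does to expression in these organoids. Each line gave 1 library per hairpin, so each hairpin group holds 3 libraries and the spread within a line under one hairpin was not measured. A single Scrib hairpin (#5523) was used, and its delivery is described as viral in one label and as plasmid transfection in the design text. The culture medium, and with it any added BMP ligand or antagonist, is not given in the sources used here. Line, tumour, sex and passage cannot be told apart.

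BMP ligands bind pairs of serine/threonine kinase receptors, which phosphorylate the Smad proteins of the BMP branch. These join Smad4 in the nucleus and switch on target genes, of which the Id genes are the most widely used readout. Id proteins are helix-loop-helix proteins without a DNA-binding region that hold E proteins away from DNA, and Smad6, Smad7 and Bambi are themselves induced and damp the signal. In the pancreas BMP signals act in development and in the ductal epithelium, and SMAD4, the shared Smad, is often lost in pancreatic cancer.

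Stretches of promoter sequence show which of the members carry letters known to be bound by Smads near a RefSeq start site. The windows ran from 250 bases before to 50 bases after the RefSeq start site (GRCm38.p6), and windows of 7 of the 10 members were used, those of Bmp4, Bmpr1a, Id2, Id3, Id4, Atoh8 and Smad6. Each was searched on both strands for GGCGCC, the GC-rich element bound by BMP Smads, for CAGAC or GTCTG, the Smad box, and for the palindrome GTCTAGAC, and the match is in capitals. No searched motif contains another. Each stretch is read 5′ to 3′ on the strand of its gene.
Bmpr1a: tgcgcgcgcgccGGCGCCtcttgctcgccc
Id2: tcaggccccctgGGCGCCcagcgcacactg
Id3: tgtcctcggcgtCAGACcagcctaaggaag
Id3: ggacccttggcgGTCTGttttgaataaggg
Id4: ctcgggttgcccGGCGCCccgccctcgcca
Smad6: gccgccaaagtGTCTAGACtggcatatgat
The Bmpr1a stretch lies at chr14:34502727-34502756 on the minus strand and the Id2 stretch at chr12:25096306-25096335 on the minus strand. Both Id3 stretches lie on the plus strand, at chr4:136143643-136143672 and chr4:136143742-136143771. The Id4 stretch is at chr13:48260956-48260985 on the plus strand, and the Smad6 stretch, which straddles the start site, is at chr9:64022045-64022074 on the minus strand. Relative to the RefSeq start, the matches begin at position -198 in Bmpr1a, -231 in Id2, -167 and -68 in Id3, -148 in Id4 and -4 in Smad6. The GENCODE gene start is the same for Bmp4, Atoh8 and Smad6 and another for Bmpr1a, Id2, Id3 and Id4. By the GENCODE spans given below, the stretches of Bmpr1a, Id2 and Id3 lie within the gene, downstream of its outermost start, and that of Id4 lies upstream. Of the 32851 RefSeq windows of this length, 11.9% hold GGCGCC, 49.6% hold a Smad box and 0.213% hold the palindrome. A Smad box occurs 2 or more times in 16.2%. Of the 7 windows used, 3 hold GGCGCC, 1 holds a Smad box and 1 holds the palindrome. These windows were 60% (Id3) to 79.3% (Bmpr1a) G or C, and no share over windows of like GC content was counted. Id1, Smad7 and Bambi were not searched, so nothing is said of their promoters. The windows of Bmp4 and Atoh8 hold none of these letters. A match describes the sequence and is no evidence of binding in these cells.

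Totals of estimated counts ran from 24035559 to 36235773 per library, and 1 count was worth 0.0269 to 0.0421 CPM (each library's counts put on a common total and scaled by edgeR's TMM factors). Scrib was at 177, 158 and 157 CPM with the Renilla hairpin in T91, T118 and T113 and at 29.7, 30 and 35 CPM with the Scrib hairpin, a log2 change of -2.38 (SE 0.12, adjusted p = 0.00582, edgeR quasi-likelihood F-test, Benjamini-Hochberg adjusted). The 10 epithelial markers, among them Epcam, Cdh1 and Krt19, summed to between 7750 and 13600 CPM, and all 10 passed the low-count filter. Markers of fibroblasts (8 genes) summed to 1.11 to 1.7 CPM with the Renilla hairpin and 1.37 to 7.7 CPM with the Scrib hairpin, those of immune cells (6 genes) to 3.42 to 4.5 and 2.15 to 6.01 CPM, those of endothelium (6 genes) to 0.201 to 1.43 and 0.423 to 1.68 CPM, and acinar and endocrine markers to at most 0.841 CPM. In bulk samples, fewer cells of a type and less RNA per cell cannot be told apart.

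The organoid lines differed in the level of most of these genes. Bmp4, Id1, Id2, Id3, Atoh8, Smad6 and Smad7 were all highest in T118, intermediate in T91 and lowest in T113 by line mean, with 2.43-fold (Smad7) to 5.02-fold (Id3) between the highest and lowest line. Bmpr1a varied by 1.2-fold between lines, and Bambi had another order. With edgeR's quasi-likelihood F-test over lines, 7 of the 9 members tested passed an adjusted p of 0.05 (Benjamini-Hochberg over all genes), against 14.0% of all genes tested. The mean order T118 over T91 over T113 held in 7 of 9 members and in 17.5% of all genes. This order was picked from the members' own values, so the shares are a description. In 6 of the 9 the libraries of the 3 lines did not overlap in that order, as in 3.51% of all genes. Counting any order, this one included, lines were apart in the same 6 members and in 20.7% of all genes. Both hairpins are present in each line, and the error of this test is therefore what remains once an average hairpin effect is taken off. Summed epithelial markers had a like order in the Renilla hairpin libraries, at 13600 CPM in T118, 9810 in T91 and 8510 in T113, and 10500, 11000 and 7750 CPM with the Scrib hairpin. Their part in the members' differences was not tested.

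**Figure D1:**
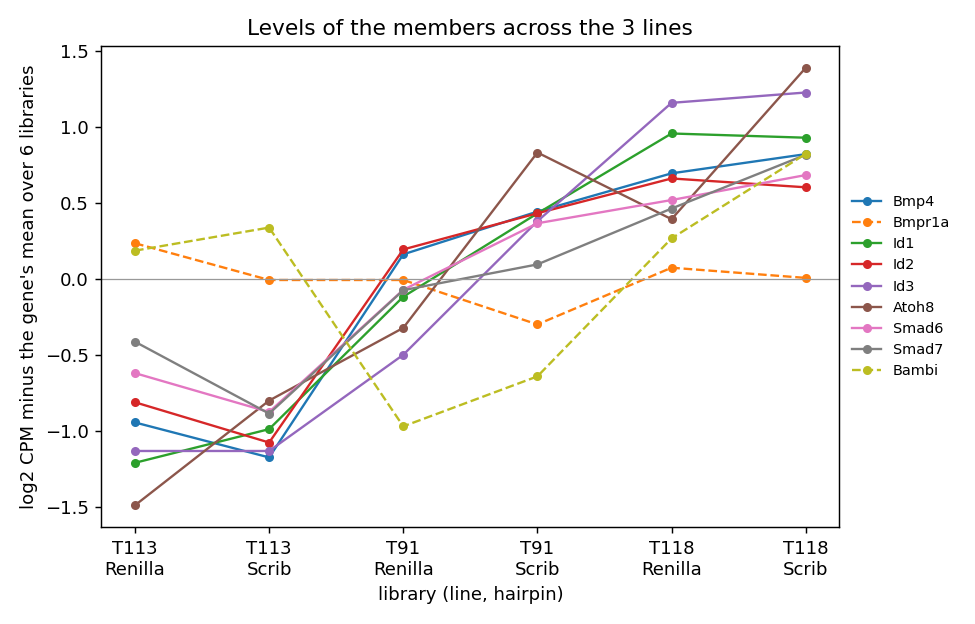
Level of the 9 members past the filter in each of the 6 libraries, as log2 CPM minus the gene's mean over the libraries (vertical axis), with libraries ordered by line and then hairpin (horizontal axis); lines join the points of 1 gene and mark no course in time. The 7 genes drawn solid are lowest in T113 and highest in T118 by line mean, and the 2 drawn dashed, Bmpr1a and Bambi, are not.

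Bmp4, the ligand of the set (ENSMUSG00000021835, GRCm38 chr14:46383520-46390669), was at 13.1 CPM with the Renilla and 14.3 CPM with the Scrib hairpin in T118, at 9.05 and 11 CPM in T91 and at 4.2 and 3.58 CPM in T113. The lines did not overlap, and T113 stood lowest under both hairpins. The 3.52-fold range of line means passed the F-test (adjusted p = 0.00632, edgeR quasi-likelihood with Benjamini-Hochberg adjustment). Between pairs of lines, T91 exceeded T113 by 1.35 on the log2 scale (SE 0.21) and T113 was below T118 by -1.81 (SE 0.21), both called, while T91 and T118 differed by -0.46 (SE 0.20, edgeR adjusted p = 0.214). With the Scrib hairpin Bmp4 was higher in T91 and T118 and lower in T113, with log2 ratios of 0.28, 0.13 and -0.23. Gm15222, an antisense gene that overlaps Bmp4, held 2 to 35 counts per library, and with no strand setting stated its reads cannot be told apart from those of Bmp4.

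Bmpr1a encodes a type I BMP receptor (ENSMUSG00000021796, chr14:34410734-34503341). Its levels were 104 and 84.9 CPM in T91 (Renilla, then Scrib hairpin), 110 and 105 CPM in T118 and 123 and 104 CPM in T113. It was the flattest member, with lines that overlap and no call between them (adjusted p = 0.308, edgeR quasi-likelihood F-test with Benjamini-Hochberg adjustment). It was also the one member that was lower with the Scrib hairpin in all 3 lines, a pattern of 15.5% of all genes, with log2 ratios of -0.29, -0.06 and -0.25 in T91, T118 and T113 and a fitted log2 change of -0.20 (SE 0.10). Its antisense overlap Gm17110 held at most 4 counts.

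**Figure D2:**
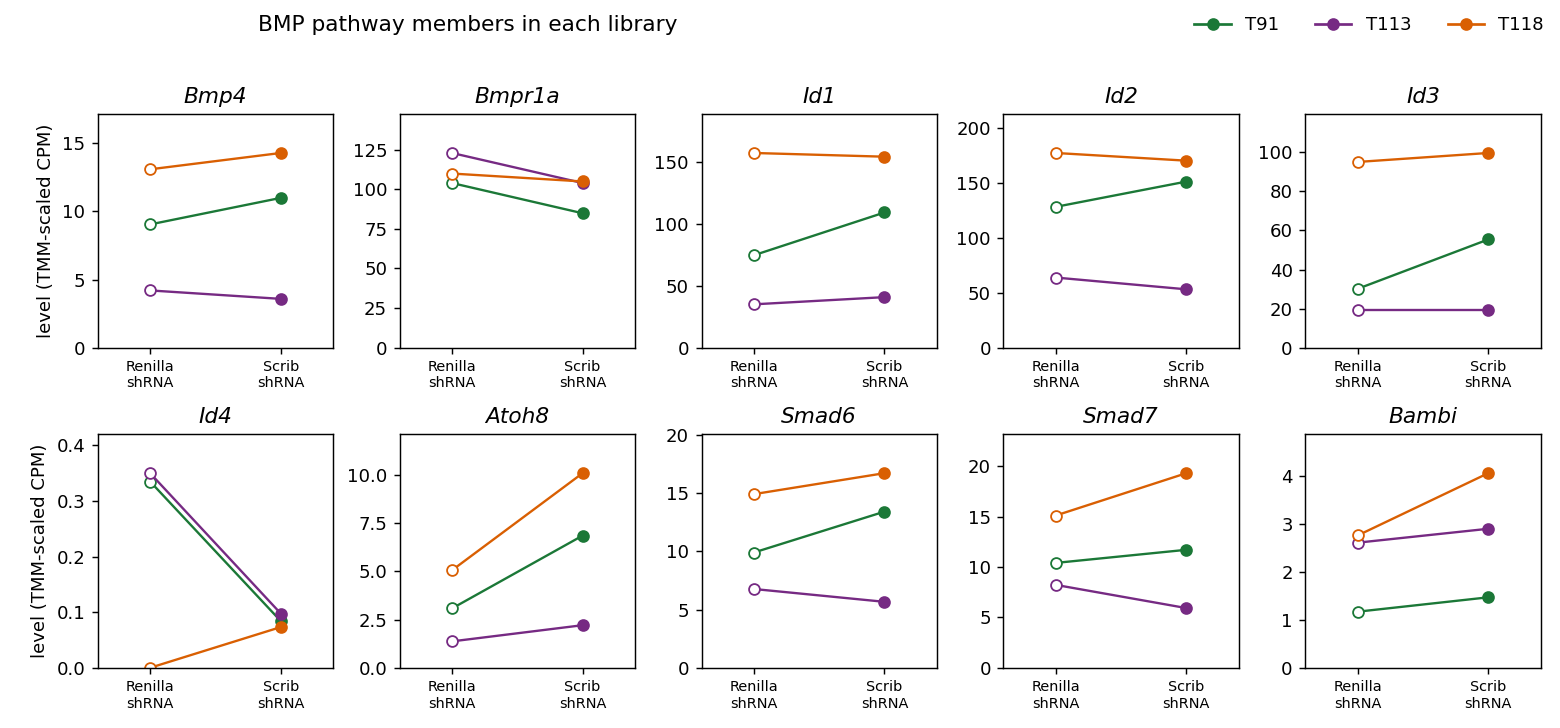
Level of each of the 10 genes in TMM-scaled CPM (vertical axis, from 0, own scale per panel) with the Renilla hairpin (open) and the Scrib hairpin (filled), lines joining the 2 libraries of an organoid line. Id1, Id2 and Id3 lie in 3 tiers by line, Atoh8 is higher with the Scrib hairpin in each line (3.08 to 6.86 CPM in T91), and Id4 stays at or below 0.35 CPM.

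Id1 (ENSMUSG00000042745, chr2:152736251-152737410), the usual reporter gene of BMP signalling, was at 157 and 154 CPM in T118 (Renilla, then Scrib hairpin), at 74.5 and 109 CPM in T91 and at 34.9 and 40.7 CPM in T113. The lines did not overlap and all 3 pairs of lines were called, with T118 4.11-fold above T113 by line mean (F-test adjusted p = 0.00198, edgeR quasi-likelihood with Benjamini-Hochberg adjustment). T91 was above T113 by 1.27 (SE 0.16) and below T118 by -0.78 (SE 0.16) on the log2 scale. With the Scrib hairpin Id1 was higher in T91 by a log2 ratio of 0.55, and by 0.22 in T113, and stood at -0.03 in T118.

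Id2 (ENSMUSG00000020644, chr12:25093799-25097140) was at 177 and 170 CPM in T118, 128 and 151 CPM in T91 and 63.7 and 53 CPM in T113. T113 was thus below every library of the other lines by more than the difference between hairpins, and the F-test passed (adjusted p = 0.00316, edgeR quasi-likelihood with Benjamini-Hochberg adjustment). T91 was above T113 by 1.26 on the log2 scale (SE 0.15), whereas T91 and T118 were not called apart (-0.32, SE 0.15, edgeR adjusted p = 0.235). The hairpin ratios of Id2 were small and of both signs, 0.24 in T91, -0.06 in T118 and -0.27 in T113.

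Id3 (ENSMUSG00000007872, chr4:136143497-136145755) had the widest range between lines among the members tested. It was at 95.1 and 99.7 CPM in T118, 30.1 and 55.4 CPM in T91 and 19.4 and 19.4 CPM in T113, with no overlap between lines. The F-test gave an adjusted p of 0.0036 (edgeR quasi-likelihood with Benjamini-Hochberg adjustment), and all 3 pairs were called, T113 below T118 by -2.32 (SE 0.23), T91 below T118 by -1.23 (SE 0.22) and T91 above T113 by 1.09 (SE 0.23). The last of these calls was lost with a filter at a mean CPM of at least 5 (edgeR adjusted p = 0.0572) and without the hairpin term (0.0593). Its hairpin ratio was 0.88 in T91, while both other lines were near 0, at 0.07 in T118 and 0.00 in T113.

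Id4 (ENSMUSG00000021379, chr13:48261228-48266026) was barely detected. It had 10, 0 and 13 counts with the Renilla hairpin in T91, T118 and T113 and 2, 2 and 3 counts with the Scrib hairpin, at most 0.35 CPM. The 0 in T118 allows up to 0.102 CPM (3 counts, counting error only), which lies above all of the Scrib hairpin values, so no order of the lines or hairpins is read from it.

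Per kilobase of exon, the scale on which genes can be compared, Id1 had the highest mean level over the 6 libraries (81.9 CPM per kb), followed by Id2 (50.8), Id3 (29.7) and the receptor Bmpr1a (16.5). Bmp4 (4.09), Smad6 (3.5), Smad7 (2.6) and Atoh8 (1.91) formed a lower tier, and Bambi (0.492) and Id4 (0.0407) were lowest. Most neighbours in this order overlap in their ranges over libraries, as Id1 (30.1 to 135) does with Id2 (21.8 to 72.8). The exceptions are Bmpr1a (13.4 to 19.4) over Bmp4 (1.59 to 6.38) and Bambi (0.231 to 0.801) over Id4 (0 to 0.091). These ranges pool lines that differ in level. Within every library Id1 stood above Id2, and Id2 above Id3. The summed level of the 4 Id genes was 261 and 258 CPM per kb in T118 (Renilla, then Scrib hairpin), 134 and 187 in T91 and 67.1 and 67.7 in T113. Id1 made up 44.8% to 51.8% of this sum in every library, Id2 27.1% to 39.3% and Id3 12.6% to 21.6%, so the makeup of the Id pool moved less between lines than its size.

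**Figure D3:**
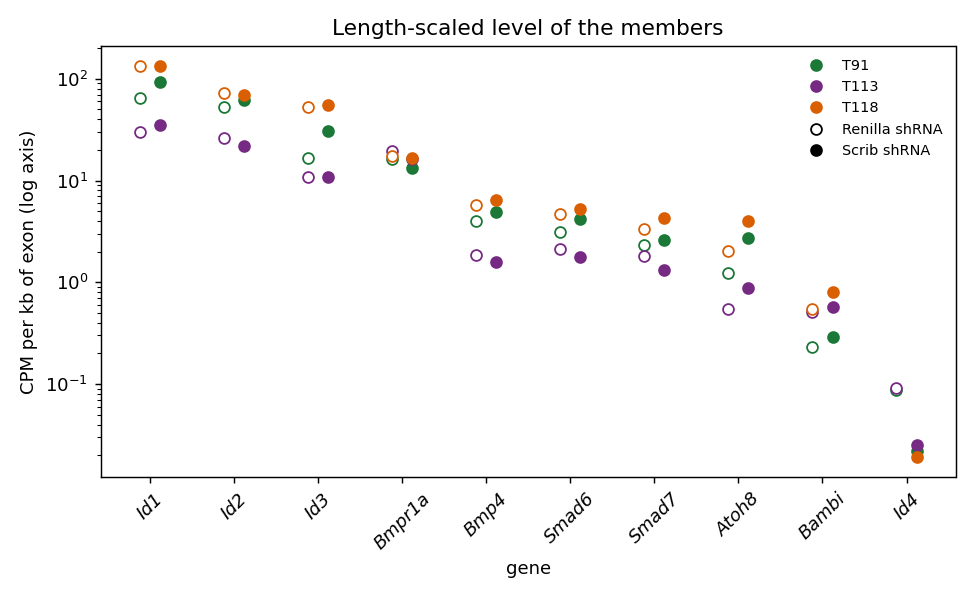
Level of each of the 10 genes per kilobase of exon (vertical axis, CPM per kb, log scale) in the 6 libraries, coloured by line, open for the Renilla and filled for the Scrib hairpin. The 3 abundant Id genes and Bmpr1a lie above 10 CPM per kb, Id4 lies below 0.1, and its library with 0 counts is not drawn.

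Atoh8 encodes a bHLH factor known as a BMP target in other cells (ENSMUSG00000037621, chr6:72206177-72235577), and it had the largest hairpin ratio of the members. It was at 3.08 CPM with the Renilla and 6.86 CPM with the Scrib hairpin in T91 (92 and 163 counts), at 5.06 and 10.1 CPM in T118, and at 1.37 and 2.21 CPM in T113 (51 and 68 counts). The Scrib hairpin library was the higher one in each line, by 2.22-fold, 1.99-fold and 1.61-fold, while the hairpin groups as wholes overlapped because the lines differ (3.17 ± 1.85 and 6.39 ± 3.96 CPM, SD, n = 3). The fitted log2 change was 0.96 (SE 0.19). Between lines Atoh8 had a 4.23-fold range (adjusted p = 0.00787, edgeR quasi-likelihood F-test with Benjamini-Hochberg adjustment), and T113 was below T118 by -2.03 (SE 0.24). T91 and T118 overlapped and were not called apart (-0.63, SE 0.23, edgeR adjusted p = 0.151).

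Smad6, an inhibitory Smad that acts mainly on BMP receptors (ENSMUSG00000036867, chr9:63953076-64022059), was at 14.9 and 16.7 CPM in T118 (Renilla, then Scrib hairpin), 9.89 and 13.4 CPM in T91 and 6.76 and 5.66 CPM in T113. Smad7, the inhibitory Smad that acts on both the BMP and the TGF-beta branch (ENSMUSG00000025880), was at 15.1 and 19.3 CPM in T118, 10.4 and 11.7 CPM in T91 and 8.22 and 5.92 CPM in T113. Both kept the 3 lines apart under either hairpin and passed the F-test, with edgeR adjusted p-values of 0.021 for Smad6 and 0.0336 for Smad7 (Benjamini-Hochberg). Of the pairs of lines, T113 against T118 was called for Smad6 (-1.34, SE 0.21) and Smad7 (-1.27, SE 0.24), and the other pairs were not. For Smad6, T91 against T113 (0.89, SE 0.21, edgeR adjusted p = 0.0706) was called with DESeq2 (adjusted p = 0.02), with no low-count filter (0.0205), without the hairpin term (0.0403) and without the Renilla hairpin library of T91 (0.018) or either T118 library (0.00674 and 0.016). For Smad7, leaving out the Renilla hairpin library of T118 brought in T91 against T113 (edgeR adjusted p = 0.0449) and T91 against T118 (0.0272). Their hairpin ratios had the same signs line by line as those of Bmp4, 0.44, 0.16 and -0.26 for Smad6 and 0.16, 0.36 and -0.47 for Smad7 in T91, T118 and T113.

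Bambi, a pseudoreceptor without a kinase domain (ENSMUSG00000024232), was the least abundant of the members tested and did not follow the others. It was at 1.17 and 1.47 CPM in T91 (35 counts in each library), 2.61 and 2.9 CPM in T113 and 2.76 and 4.06 CPM in T118, so that T91, not T113, was lowest, and T113 and T118 overlapped. The F-test over lines missed the threshold (adjusted p = 0.0533, edgeR quasi-likelihood with Benjamini-Hochberg adjustment), and the contrast of T91 with T118 passed (-1.35, SE 0.29, edgeR adjusted p = 0.0325). That call was lost when either T91 library, either T113 library or the Scrib hairpin library of T118 was left out (edgeR adjusted p from 0.0503 to 0.1). Bambi was higher with the Scrib hairpin in all 3 lines, with log2 ratios of 0.33, 0.15 and 0.56 in T91, T113 and T118. The pseudogene Bambi-ps1 held 1 to 9 counts per library, and reads could be traded between the copies.

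In pairs of lines, T113 against T118 was called for 7 of the 9 members tested (10.2% of all genes), T91 against T113 for 5 (6.06%) and T91 against T118 for Id1, Id3 and Bambi (11%). Leaving out either library of T113 lowered the counts called over all genes, by the F-test and in both contrasts with T113. Since calls fell over all genes, no trait of the members is read from their own losses. Calls of members by the F-test fell most without the Scrib hairpin library of T113. Without it 4 of 9 members passed the F-test over lines, Bmp4, Id1, Id2 and Id3, and the edgeR adjusted p was 0.0644 for Atoh8, 0.141 for Smad6 and 0.144 for Smad7. Without it T91 against T113 was also lost for Bmp4, Id2, Id3 and Atoh8 (edgeR adjusted p = 0.167, 0.061, 0.328 and 0.345), and Id1 was the one member that kept that call. T113 against T118 was lost without it for Atoh8, Smad6 and Smad7 (edgeR adjusted p = 0.062, 0.13 and 0.2). Leaving out the Renilla hairpin library of T113 ended T91 against T113 for Id3 and Atoh8 (edgeR adjusted p = 0.0586 and 0.119), and leaving out the Scrib hairpin library of T91 did so for Atoh8 (0.0546), as did a fit without the hairpin term (0.194). In the other direction, Id2 was called between T91 and T118 without the Scrib hairpin library of T91 (edgeR adjusted p = 0.0202), and Bambi between T91 and T113 without the Renilla hairpin library of T118 (0.0346).

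The comparison of hairpins, given here as a description, split by line. In T91, 8 of 9 members were higher with the Scrib hairpin (median log2 ratio 0.33), in T118 6 of 9 (0.13) and in T113 3 of 9 (-0.23), while 50.1%, 49.7% and 49.4% of all genes were higher. Atoh8 and Bambi were higher in all 3 lines, a pattern of 14.7% of all genes. In the fit over the 3 lines the log2 change was 0.34 for Bambi (SE 0.23), 0.31 for Id3 (SE 0.18), 0.25 for Id1 (SE 0.13), 0.12 for Smad6 (SE 0.17), 0.07 for Bmp4 (SE 0.16), 0.03 for Smad7 (SE 0.19) and -0.03 for Id2 (SE 0.12). The median over the 9 members was 0.12, beside -0.01 over all genes. Of all genes tested, 1 passed the adjusted threshold for the hairpin with edgeR's quasi-likelihood test (0.00706%), Scrib itself, while 936 had an unadjusted p under 0.05. No member had hairpin groups that do not overlap, as 2.59% of all genes had with the Scrib hairpin higher and 2.14% with it lower.

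**Figure D4:**
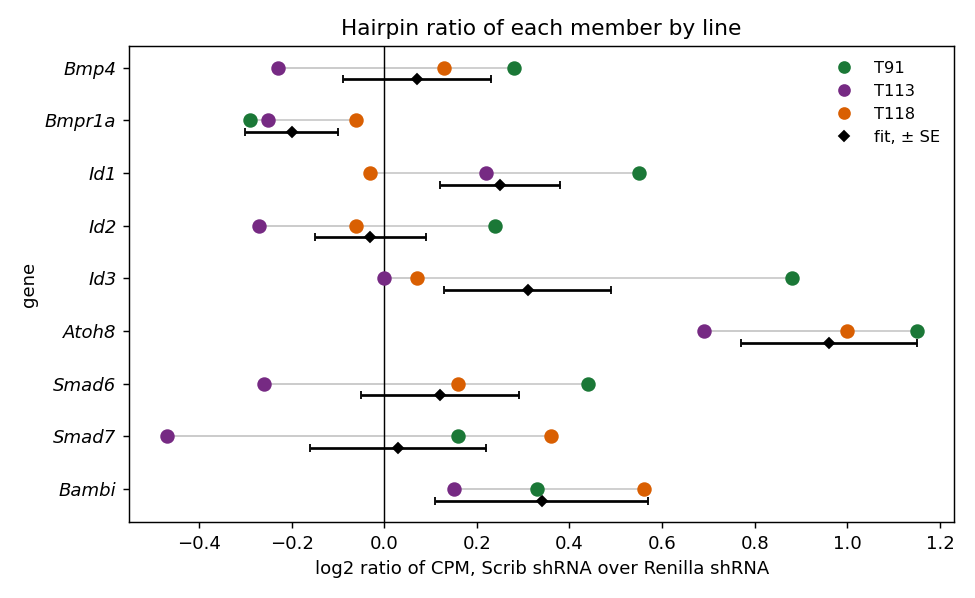
Log2 ratio of CPM, Scrib over Renilla hairpin (horizontal axis), for the 9 members past the filter in each line (coloured points), with the fitted log2 change and its SE below (black). Atoh8 lies right of 0 in each line (0.69 to 1.15), Bmpr1a left of 0, and Id3 is at 0.88 in T91 and near 0 in T113 and T118.

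The fitted values of Id1 and Id3 rested on T91. Without that line the fitted log2 change fell to 0.09 for Id1 and 0.04 for Id3, was -0.04 for Bmp4, Smad6 and Smad7, and stayed at 0.86 for Atoh8. Whether T91 responded otherwise than the other lines could not be tested, since each line has 1 library per hairpin. The T91 library with the Scrib hairpin also had higher summed levels of markers of other cells, with fibroblast markers at 7.7 CPM against 1.11 CPM in its control (1.37 to 2.23 CPM in the other lines) and immune markers at 6.01 against 3.42 CPM. Col1a1 was at 3.53 against 0.503 CPM there, Col3a1 at 2.02 against 0.235 and Col1a2 at 1.47 against 0.335. Pdgfra, Pdgfrb, Dcn and Thy1 were also higher there, at no more than 0.252 CPM, while Lum was at 0 in all 6 libraries. Col1a1 was higher with the Scrib hairpin in T118 (1.02 against 0.444 CPM) and T113 (0.781 against 0.485 CPM) as well. The immune markers did not move together. Lyz2 was at 1.14 against 0.101 CPM, C1qa at 0.757 against 0.0335, Csf1r at 0.379 against 0.168 and Cd68 at 3.7 against 3.02. Ptprc was lower, at 0.0421 against 0.101 CPM, and Adgre1 was at 0 in both T91 libraries. The part of these cells in the T91 ratios was not tested.

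Across the 6 libraries the log2 level of Id1 ran with that of Id3 (Pearson r = 0.98), Bmp4 (0.97), Smad6 (0.97), Id2 (0.96), Atoh8 (0.92) and Smad7 (0.92), and not with Bambi (0.10) or Bmpr1a (-0.40). These values describe 6 points that share 3 lines, so they mostly restate the order of the lines. Of 9894 genes ranked by likeness to Id1, the closest included Nudt9 (r = 0.989), Nipa1 (0.989), Rpusd4 (0.988) and the ductal keratin Krt7 (0.987). Id3 ranked 21, Smad6 29, Bmp4 33, Id2 63, Atoh8 202 and Smad7 232, and Bambi and Bmpr1a came at 4535 and 6886. Krt7 itself was at 3190 and 2910 CPM in T118, 2260 and 2550 CPM in T91 and 1220 and 1360 CPM in T113.

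Genes of the rest of the pathway were tested for the hairpin one by one, and a shared direction was not tested. Of 101 further genes in lists of ligands, receptors, Smads, antagonists, intracellular regulators, other BMP targets, partners of Id proteins and TGF-beta targets, 53 passed the low-count filter. None was called in either direction with edgeR's quasi-likelihood test, nor with DESeq2 or limma-voom. At an unadjusted p under 0.05, 1 was higher and 5 were lower, beside 219 higher and 717 lower over all genes. By sign alone 15 were above and 38 below 0, with a median of -0.09 beside -0.01 over all genes.

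Among ligands, Bmp2 was at 3.35, 3.92 and 8.19 CPM with the Renilla hairpin in T91, T118 and T113 and at 2.9, 0.512 and 4.2 CPM with the Scrib hairpin, lower in each line (log2 change -1.22, SE 0.49, edgeR adjusted p = 0.753). Bmp3, an atypical ligand that can oppose BMP signals, had a log2 change of -0.22 (SE 0.11) and Bmp6 of -0.96 (SE 0.57), with edgeR adjusted p-values of 0.772 and 0.783. Of the receptors, Acvr1b, a type I receptor for activin, had a log2 change of -0.30 (SE 0.11), the type II receptor Bmpr2 of -0.27 (SE 0.18) and Acvr2b of -0.33 (SE 0.25). Of the signal-carrying Smads, Smad1 had a log2 change of -0.19 (SE 0.10), Smad4 of -0.03 (SE 0.11) and Smad5 of -0.01 (SE 0.11). Smad4 was detected in every library, at 78.4 to 128 CPM.

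The secreted antagonist noggin (Nog) had no counts in any library. Of the antagonists and modulators measured, the log2 change was -0.39 for Nbl1 (SE 0.24), -0.51 for the protease Bmp1 (SE 0.32) and -0.04 for Twsg1 (SE 0.12). Smurf1, a ubiquitin ligase that marks BMP Smads for destruction, had -0.28 (SE 0.09), the Smad phosphatase Ctdsp2 -0.24 (SE 0.09) and Tob1, a repressor of BMP Smads, -0.38 (SE 0.16), with edgeR adjusted p-values from 0.744 to 0.767. Of 13 other known BMP targets 2 were measured, Hes1 (0.25, SE 0.15) and Runx2 (-0.09, SE 0.17). Tcf4, an E protein that Id proteins bind, was at 16.6 and 9.38 CPM in T91 (Renilla, then Scrib hairpin), 11.1 and 8.84 CPM in T118 and 23.2 and 19.3 CPM in T113, lower in each line (log2 change -0.47, SE 0.16, edgeR adjusted p = 0.742). The bHLH factors Atoh1 and Bhlha15 had log2 changes of -0.96 (SE 0.41) and -0.35 (SE 0.21). Ccn2, a matrix-associated TGF-beta target, was the 1 gene above 0 at an unadjusted p under 0.05 (log2 change 0.38, SE 0.15, edgeR adjusted p = 0.748), while Tgif1 and Cdkn2b of the same list had -0.29 (SE 0.13) and -0.54 (SE 0.27).

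**Figure D5:**
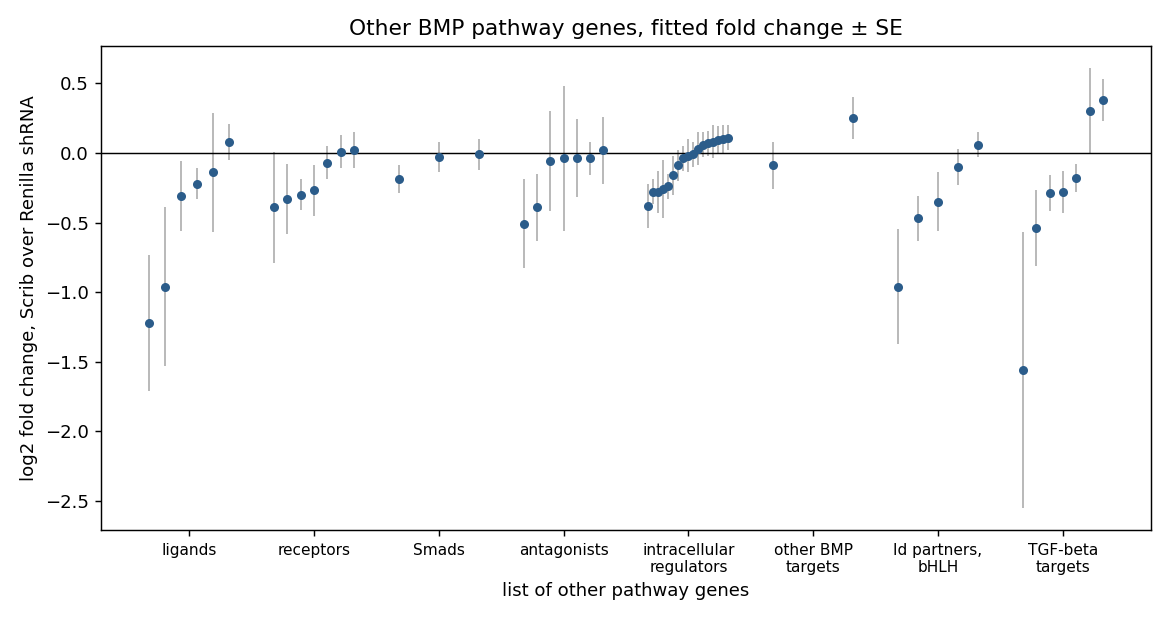
Fitted log2 fold change, Scrib over Renilla hairpin, with its SE (vertical axis) for the 53 measured genes of 8 lists of other pathway genes (horizontal axis), ordered by value within a list. Of these genes, 15 lie above 0 and 38 below, and none passed the adjusted threshold. Skil is in both the intracellular and the TGF-beta list and is drawn in each.

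Between lines, 14 of the 53 passed the F-test (26.4%, against 14.0% of all genes tested). The mean order T118 over T91 over T113 held in 6 of the 53, beside 17.5% of all genes. In 1 of them the lines did not overlap, beside 3.51% of all genes. In 4 of the 14, Nedd4l, Ppm1h, Bhlha15 and Tcf4, the order was the reverse, T113 over T91 over T118. The share of all genes with that reverse order was not counted, so the 4 are given as a description. Tcf4, the E protein, averaged 21.3 CPM in T113, 13 CPM in T91 and 9.98 CPM in T118 (adjusted p = 0.0238), and Atoh1 averaged 9.17, 0.332 and 0.62 CPM in T113, T91 and T118 (adjusted p = 0.0026), both by edgeR's quasi-likelihood F-test with Benjamini-Hochberg adjustment.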

How the data were processed

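For each library the authors deposited a table of estimated counts by Ensembl identifier, and the submitters' processing notes name Salmon 1.4.0, DESeq 2 and GRCm38 (mm10). Strand setting and transcript annotation are not given in the sources. Salmon shares reads among similar transcripts, so near-identical copies can trade counts. Estimated counts were rounded, and 54200 of 54453 identifiers matched a symbol of a GENCODE annotation of GRCm38. The low-count filter was filterByExpr (minimum count 10), which kept genes holding at least 99.84% of each library's counts. CPM refer to counts of these genes scaled by TMM, and log2 CPM for correlations had a prior count of 2.

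edgeR 4.0.16 in R 4.3.3 fitted line and hairpin over all 6 libraries (robust quasi-likelihood F-tests, Benjamini-Hochberg over all genes tested, threshold 0.05, 2 residual and 4.43 prior degrees of freedom, biological coefficient of variation 15.5%). The line stood in the model as the pair because both libraries of a line come from the same organoid line, and their deviations from the group means correlated at 0.621 to 0.666. The hairpin test was also run on simulated counts with hairpin changes added, and the tests between lines were not checked in this way. The only condition set on that run was a small median error of the fitted change, so no power or rate of false calls is claimed from it. Nothing says that libraries came from separate cultures or animals within a line, so p-values measure the spread between these libraries. The members, lists and tests were chosen with earlier results of these data known. The text names the members, Scrib, up to 3 measured genes of each list by smallest unadjusted p for the hairpin, and the 5 genes most like Id1 (mean log2 CPM no lower than 2, predicted genes left out), of which 1 is not reported here. Other genes named were chosen after their values were seen. Of 140 list genes 138 were found. Alternatives were DESeq2 size factors, no filter, a mean CPM of at least 5, DESeq2 1.42.0, limma-voom (limma 3.58.1), non-robust dispersions, fits without the line or the hairpin term, and leaving out lines or libraries. Promoter windows came from RefSeq (GRCm38.p6).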

Additional observations from a re-analysis of the deposited data

How the results depend on the processing

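For the hairpin, 1 gene was called in the fit reported, 64 with no low-count filter, 63 with DESeq2, 8 with limma-voom and 9 to 94 when 1 line was left out. Without the replicate block, that is without the line term, the count stayed at 1. Between lines 1989 genes were called, 1310 with a mean CPM of at least 5 and 1274 to 4328 without 1 library. For T91 against T113 the count was 859, and 405 to 1819 without 1 library. For T91 against T118 it was 1564, 1031 with a mean CPM of at least 5 and 1298 to 2800 without 1 library. For T113 against T118 it was 1452, 955 with a mean CPM of at least 5 and 434 to 3433 without 1 library. Of the members, 7 were called between lines and 4 to 8 without 1 library. Id1, Id2, Id3 and Bmp4 were called in all 13 alternatives, and Atoh8 was not without the hairpin term (edgeR adjusted p = 0.0781). Bambi was called with no filter (0.0273) and without the Renilla hairpin library of T118 (0.0161), by edgeR with Benjamini-Hochberg adjustment. The causes were not tested. With 1 library per line and hairpin, a difference between lines in the hairpin ratio could not be tested, and Id4 is limited by its depth.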

Other observations

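Other BMP pathway genes also differed between the organoid lines, and those named here were chosen after their values were seen. Msx1, a homeobox gene known as a BMP target, did not pass the low-count filter and was highest in T118, at 1.4 and 1.87 CPM in T118 (Renilla, then Scrib hairpin), 0.268 and 0.252 CPM in T91 and 0.108 and 0.0976 CPM in T113, the last 4 values being too low to order T91 and T113. The ligand Bmp8b was at 104 and 119 CPM in T118, 51.1 and 42.8 CPM in T91 and 38.5 and 46.5 CPM in T113 (adjusted p = 0.0038, edgeR quasi-likelihood F-test with Benjamini-Hochberg adjustment), with T91 and T113 overlapping.

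The antagonists Fst and Nbl1 were highest in T91. Fst, which binds activins and some BMPs, was at 11.1 and 7.86 CPM in T91, 3.38 and 5.34 CPM in T118 and 0.862 and 0.683 CPM in T113 (edgeR adjusted p = 0.00434), while Nbl1, of the DAN family, was at 21 and 20.2 CPM in T91, 6.59 and 3.22 CPM in T118 and 1.45 and 1.37 CPM in T113 (edgeR adjusted p = 0.00161). T113, the line with the lowest Id1, Id2 and Id3, also had the lowest Fst and Nbl1, and a link between these levels was not tested. Bmp3 had the reverse order of lines to these antagonists, at 57.7 and 47.5 CPM in T113, 35.6 and 34.5 CPM in T118 and 14 and 11 CPM in T91 (edgeR adjusted p = 0.000957).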
